A study of Homo sapiens with 7 samples.

Results

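The loci of the 3 SOXF genes, SOX17, SOX7 and SOX18, were examined in ATAC-seq peak lists from human embryonic stem cells and 3 endoderm stages made from them. The members are the deposited peaks whose summit lies inside one of these genes or within 100 kb of either end (hg38), and 917 of the 2093738 peaks in the 7 lists met this rule. The SOX17 locus held 280 of them (gene at chr8:54457935-54460892), the SOX7 locus 257 (chr8:10723768-10730511) and the SOX18 locus 380 (chr20:64047582-64049639). Per library the members numbered between 102 in hDE replicate 2 and 150 in hAFE replicate 2, and every library contributed to every locus.

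The SOXF proteins are transcription factors that bind DNA through an HMG box and bend it, and they end in a transactivation domain. SOX17 is required for the formation of definitive endoderm, and its expression marks that stage in differentiating cultures; in the embryo all 3 genes also act in endothelial cells, where they specify arteries, veins and lymphatic vessels. ATAC-seq reads where the Tn5 transposase can insert adapters, so a peak marks open chromatin and not the level of a transcript.

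The cells were of H1, an established human embryonic stem cell line, sampled along a stepwise differentiation toward the endoderm of the pharyngeal foregut. The undifferentiated cells are named hESC, the definitive endoderm hDE and the anterior foregut stage hAFE, each with 2 libraries, and the pharyngeal foregut stage, hPFE, has 1. Per the labels, the hESC and hDE libraries were re-analysed from an earlier series, so that between hAFE and hDE, and between hPFE and hESC, stage and series cannot be told apart. No genotype, transgene or drug separates the stages in the labels, all 7 libraries come from 1 line, and nothing says whether replicates were separate cultures, so p-values measure the spread between libraries, which may be technical. The single hPFE library has no replicate check.

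Each deposited list was cut at 300000 peaks by its authors, so the number of peaks is not a measure of openness. The height of a summit is given here as the pileup of Tn5 cut sites at the summit divided by the genome-wide background pileup of the same library, which ran from 2.11 to 7.94 cut sites and measures depth. A region is called strict in a library when it is among the 50000 strongest of that library by the deposited −log10 p, a weaker peak is any other deposited peak, and a region without a deposited peak may still lie under the list's limit. Over all libraries 129718 regions were strict at least once, and 54 of them belonged to the SOXF loci: 18 to SOX17, 16 to SOX7 and 20 to SOX18. These regions took in 166, 112 and 241 of the member peaks of SOX17, SOX7 and SOX18, and the 114, 145 and 139 peaks left outside reached a deposited fold enrichment of at most 10.6, 9.96 and 7.01.

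The libraries differed in overall height. The median height of strict regions ran from 11.7 in hPFE to 33.8 in hAFE replicate 1, and the median over all genes of the summed height at a locus ran from 108 in hPFE to 345 in hAFE replicate 1. Values are therefore also given divided by the library's own median, called scaled below.

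The SOX17 locus was most open in definitive endoderm. The summed height of its strict regions was 78.6 and 79.9 in the hESC libraries, 225 and 283 in hDE, then 173 and 168 in hAFE and 30.9 in hPFE. Sums of replicates lay close together at the stages with 2 libraries, and no library of one stage overlapped another stage. The hDE sums rested on unlike numbers of strict regions, 12 in replicate 1 and 6 in replicate 2. The cut for strict lay at a −log10 p of 15.4 and 97.1 in these libraries. The numbers were 6 and 4 in hESC, 6 and 8 in hAFE and 3 in hPFE. Divided by the median over all genes, the sums were 0.638 and 0.375 in hESC, 1.61 and 1.50 in hDE, then 0.502 and 0.789 in hAFE and 0.285 in hPFE. Only the hDE libraries exceeded the typical gene on this scale, and the hESC and hAFE libraries overlapped there.

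On the log2 scale, with 1 added to each sum, the SOX17 locus was higher in hDE than in hESC by 1.66 (1.65 scaled), a difference larger than that of 97.9% of the 19709 genes tested. Both hDE libraries exceeded both hESC libraries at 11.1% of all genes (21.6% scaled). Between hAFE and hDE the difference was −0.56 (−1.30 scaled), with the hAFE libraries lower, an order found at 2.05% of all genes (17% scaled). In that comparison 58.1% of genes had the opposite order before scaling. Between hPFE and hAFE the difference was −2.43 (−1.13 scaled), and hPFE was lower at 92.4% of all genes (33.1% scaled). Between hPFE and hESC the difference was −1.33 (−0.77 scaled), with hPFE lower, an order shown by 61.4% of all genes (35.5% scaled).

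Stage accounted for a share of 0.992 of the sum of squares of the SOX17 locus value (exact permutation test, in which the libraries were regrouped in every possible way as 3 pairs and 1 single, p = 0.00952, the smallest the design allows). That p was reached by 0.771% of the 19709 genes, and after Benjamini-Hochberg adjustment over all of them the adjusted p was 0.632, so the SOX17 locus did not pass the threshold of 0.05. No gene of 19709 passed it, while 4.2% of genes were under 0.05 unadjusted. On the scaled sums the SOX17 share was 0.905 (exact permutation p = 0.0571, adjusted p = 0.781), and 5.82% of genes were under 0.05 unadjusted. A comparison of 2 libraries with 2 cannot give a two-sided exact p below 0.333, so single steps were not tested.

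**Figure D1:**
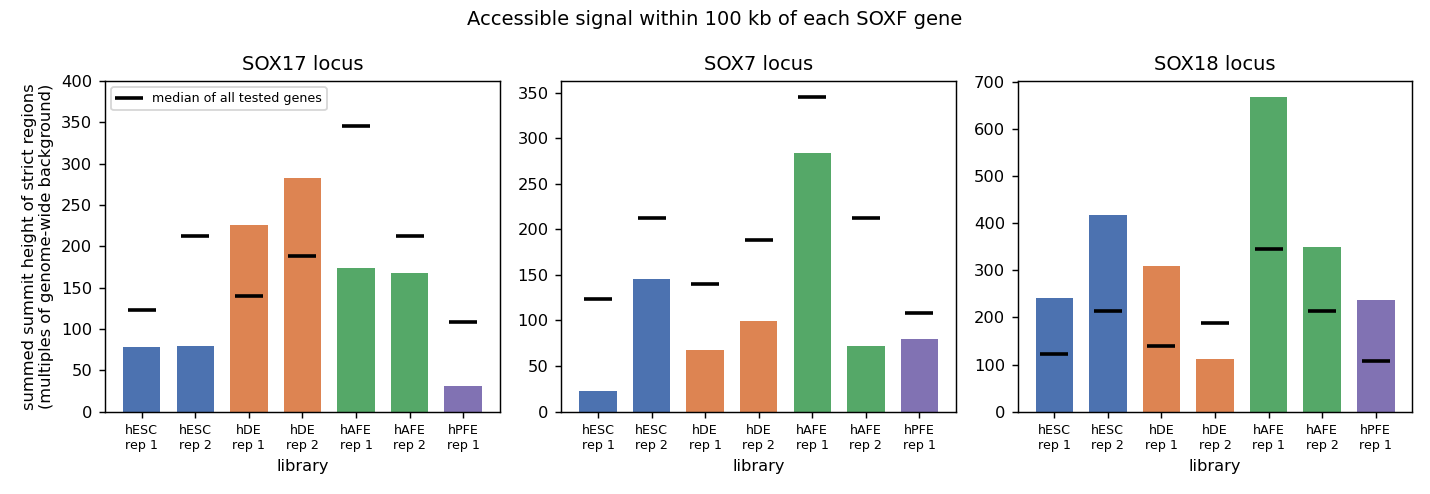
Summed summit height of the strict regions within 100 kb of each SOXF gene (bars, in multiples of the genome-wide background, linear axes from 0) in each of the 7 libraries, with the median over all tested genes of the same library as a black line. At SOX17 the 2 hDE bars, 225 and 283, stand above their lines and every other bar lies below; at SOX18 only hDE replicate 2 lies below its line.

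The strongest region of the SOX17 locus in hDE lay 14.2 kb from the gene on its lower-coordinate side, at chr8:54443259-54444419, inside the lncRNA gene LOC105375841. Its summit height was 7.58 and 9.31 in hESC, 60.3 and 95.0 in hDE, then 20.3 and 13.8 in hAFE and 3.89 in hPFE. It was strict in the hDE and hAFE libraries and a weaker peak in the others. It ranked 763 and 524 among all regions of the hDE libraries, against 50998 and 62739 in the hESC libraries. The authors' deposited fold enrichment over local background was 14.4 and 16.9 in hDE, against 4.79 and 7.83 in hESC. The stages did not overlap, and the log2 height was higher by 3.17 in hDE than in hESC and the difference between hAFE and hDE was −2.18 (exact permutation p = 0.00952, adjusted p = 0.303 over all regions; scaled p = 0.0381).

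A smaller region next to it, at chr8:54442992-54443180, followed the same order of stages, with heights of 5.21 and 8.22 in hESC, 16.8 and 18.3 in hDE, then 13.5 and 8.57 in hAFE and no peak in hPFE (exact permutation p = 0.00952, adjusted p = 0.303). It was strict in hDE replicate 1 only. That order held for the height and not for the deposited fold enrichment over local background. The fold was 3.35 and 6.94 in hESC, 4.08 and 3.25 in hDE, then 7.52 and 4.62 in hAFE.

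The region at the lower end of the SOX17 gene, chr8:54457613-54458445, was strict in both hDE libraries and in no other. Heights were 10.9 and 14.1 in hESC, 38.2 and 57.1 in hDE, then 17.6 and 15.1 in hAFE and 7.24 in hPFE. Peaks were thus deposited there in every library, undifferentiated cells included, and the hDE libraries stood apart from the rest (exact permutation p = 0.00952, adjusted p = 0.303; scaled p = 0.133). A region inside the gene, chr8:54459455-54459897, had heights of 13.3 and 14.1 in hESC, 16.6 and 18.5 in hDE, then 13.5 and 10.1 in hAFE and 4.59 in hPFE, a narrower range (exact permutation p = 0.0190, adjusted p = 0.303; scaled p = 0.286). In hESC replicate 2 a single peak region covered both, so its value of 14.1 is 1 measurement counted at both. Inside the gene the deposited fold enrichment was lower in hDE than in hESC, at 3.14 and 2.33 against 4.77 and 4.44. At the lower end of the gene the fold was higher in hDE, at 6.73 and 6.81 against 3.39 and 4.44. The fold of 4.44 is that of the shared peak region.

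A region 35.4 kb from the gene on the lower side, chr8:54422390-54422850, was highest a stage later. Its height was 4.74 and 5.19 in hESC, 6.12 and 13.5 in hDE, then 51.3 and 44.6 in hAFE and 11.7 in hPFE. It was strict in both hAFE libraries and in hPFE, where it was the strongest region of the locus, and was a weaker peak in all hESC and hDE libraries. In hDE replicate 2 the peak, with a −log10 p of 64.2, was taller than the strict one of hPFE, with 41.9. It fell under the higher cut of its own library, 97.1. The hAFE libraries exceeded the hDE libraries by 2.40 on the log2 scale (exact permutation p = 0.0476, adjusted p = 0.303; scaled p = 0.0190). This region had higher values in hAFE than in hDE while the sum over the SOX17 locus had lower ones.

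On the other side of the gene, a region 15.3 kb from its upper end at chr8:54475736-54476562 was strict in both hDE libraries, with heights of 12.0 and 37.9, and had no deposited peak in hAFE or hPFE. In hESC it had a weak peak of height 4.74 in replicate 1 and none in replicate 2 (exact permutation p = 0.0571, adjusted p = 0.303, with libraries lacking a peak set to their lowest deposited height). Its nearest protein-coding gene end is that of LOC100129098, 5723 bp away.

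**Figure D2:**
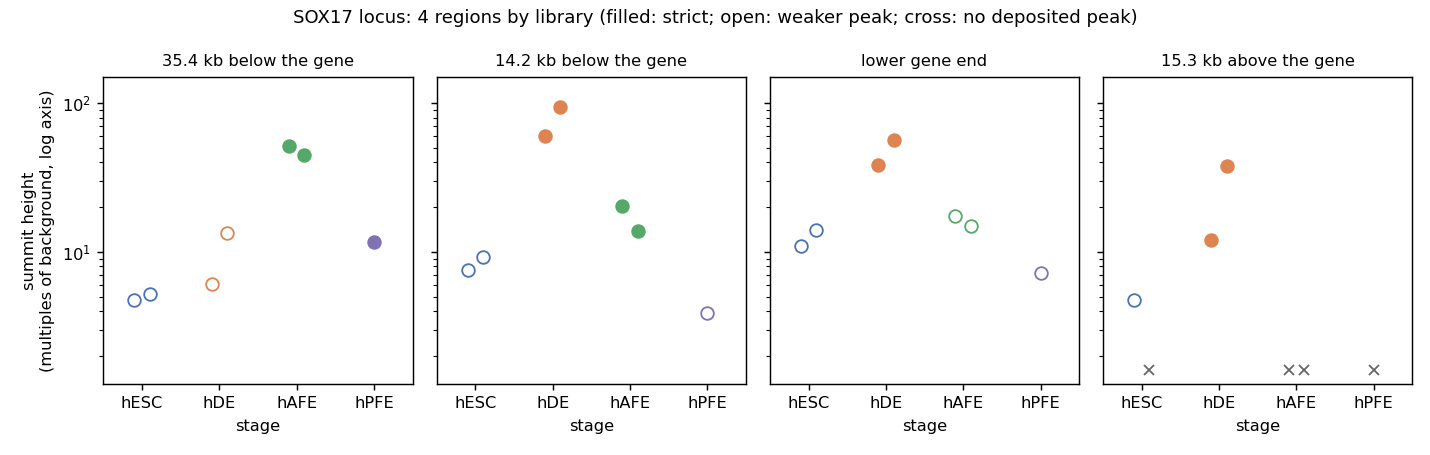
Summit height on a log axis, in multiples of the genome-wide background, of 4 regions of the SOX17 locus by stage, with 1 symbol per library (filled, strict; open, weaker peak; cross near the lower edge, no deposited peak). The regions 14.2 kb below the gene, at its lower end and 15.3 kb above it are highest in hDE, and the region 35.4 kb below is highest in hAFE, at 51.3 and 44.6.

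Other regions of the SOX17 locus differed in the libraries where they were strict. The region 91.0 kb above the gene, chr8:54551683-54552340, was the only region of the locus that was strict in all 7 libraries, as 11.2% of all regions were, and the strongest of the locus in hESC. Its heights were 22.7 and 26.2 in hESC, 20.1 and 47.0 in hDE, then 34.2 and 31.4 in hAFE and 9.54 in hPFE, with hDE spanning the others apart from hPFE. The region 75.7 kb below, at chr8:54381782-54382611 in the lncRNA gene LOC105375840, was strict in every library but hPFE, where its height was 3.18. One region, 90.5 kb below the gene, had deposited peaks in the hDE libraries only, of height 8.08 and 17.6 (exact permutation p = 0.0381, adjusted p = 0.303). Another, 43.1 kb below, had them in hESC only, at 5.21 and 17.3, and one 44.6 kb below in hAFE and hPFE only, at 16.7, 9.08 and 4.59.

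Counted over all 18 regions of the SOX17 locus, both hDE libraries exceeded both hESC libraries at 8 and were lower at 1, where 21.9% and 16.1% of all regions had these orders. The scaled heights also gave 8 and 1, against 22.9% and 24.5% of all regions, but not with all the same regions. On that scale the region inside the gene was no longer among the 8, and the one 42.7 kb below the gene was. From hDE to hAFE, the hAFE libraries were lower at 7 and higher at 4 (background 17.1% and 28.9%), or lower at 9 and higher at 3 on the scaled heights (26.7% and 23.7%). hPFE was below both hAFE libraries at 15 and above them at none (background 56% and 16.5%), and on the scaled heights below at 8 and above at 1 (34.7% and 28.6%). Against hESC, hPFE was lower at 12 and higher at 2 (background 44.5% and 23.1%), and on the scaled heights lower at 9 and higher at 3 (35.3% and 32.7%). In the test over the 4 stages, 6 of 18 regions had an unadjusted exact p under 0.05, where 11.3% of all regions did. The smallest p was reached by 3, where 1.86% of all regions reached it, and none passed after adjustment. Those 3 include the strongest hDE region and the smaller one next to it, and the 6 include the region inside the gene. On the scaled heights 4 of 18 were under 0.05, where 19.9% of all regions were.

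**Figure D3:**
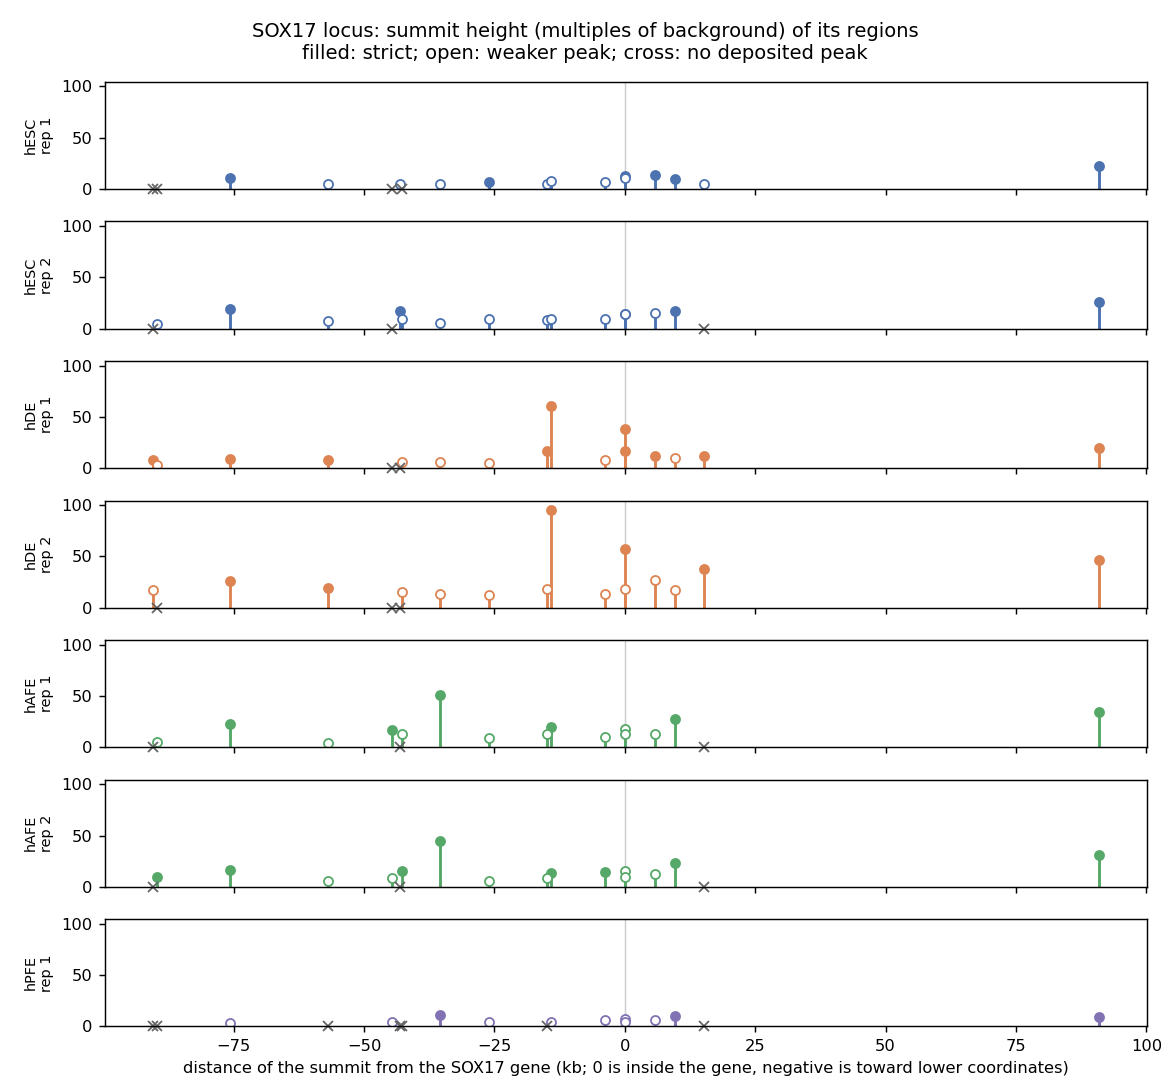
Summit height in multiples of the genome-wide background (linear axis from 0) of the 18 regions of the SOX17 locus by distance of the summit from the gene in kb, with 1 panel per library from hESC at the top to hPFE at the bottom. Filled stems are strict, open ones weaker peaks, and crosses mark regions without a deposited peak; the tall stems 14.2 kb below the gene and at its lower end appear in the 2 hDE panels, and the stem 35.4 kb below in the 2 hAFE panels.

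The SOX7 locus showed no such order of stages. Its summed height was 22.7 and 145 in hESC, 67.1 and 99.5 in hDE, then 283 and 71.6 in hAFE and 79.8 in hPFE. The hESC replicates spanned every other library except hAFE replicate 1, and the stages overlapped at each consecutive step (share of stage 0.235, exact permutation p = 0.829, adjusted p = 0.850). The log2 difference of hDE and hESC, 0.49, was −0.82 without hESC replicate 1 and 1.80 without hESC replicate 2. Divided by the median over all genes, all 7 values were below 1, from 0.185 in hESC replicate 1 to 0.820 in hAFE replicate 1.

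At the upper end of the SOX7 gene, the region chr8:10730101-10731009, which also lies in the antisense gene SOX7-AS1, had a deposited peak in every library. Heights were 11.4 and 17.7 in hESC, 18.1 and 15.5 in hDE, then 36.9 and 13.8 in hAFE and 13.6 in hPFE, with overlap between all stages that have replicates (exact permutation p = 0.762, adjusted p = 0.783). The region 7.50 kb below the gene, chr8:10715962-10716763, was the strongest of the locus in hAFE replicate 1, with heights of 8.05 and 11.9 in hESC, 11.4 and 24.4 in hDE, then 54.5 and 15.3 in hAFE and 5.65 in hPFE. It was strict in the hDE and hAFE libraries only. The region 87.0 kb below, inside RP1L1, had the largest height of the locus in both hDE libraries, 21.6 and 39.9, and was strict in all but the hPFE library, where its height was 3.53.

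A region 69.5 kb above SOX7, chr8:10799570-10800155, was gained in hAFE: its height was 25.2 and 17.6 in hAFE, against no deposited peak in either hDE library, and 21.0 in hPFE, where it was the strongest of the locus. In hESC it had a peak of 4.74 in 1 library (exact permutation p = 0.0571, adjusted p = 0.303; scaled p = 0.0286). Of the 54 SOXF regions, 1 was gained at that step, where 2.05% of all regions were. A second region in the same stretch, 46.5 kb above, was strict in hAFE alone, at 26.6 and 17.4 in hAFE, against 3.28 and 4.91 in hDE. Both lie inside PINX1, a gene of telomere maintenance that neighbours SOX7.

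hPFE had 2 regions at the SOX7 locus with a peak in no other library, at heights of 12.2 (chr8:10736135-10736954, 5.74 kb above the gene in SOX7-AS1) and 14.3 (chr8:10793722-10794047, 63.4 kb above in PINX1). They are the 2 gained regions of hPFE against hAFE among all 54, where 8.45% of all regions were gained, and 6.24% of all regions were strict in hPFE and without a peak in every other library. Against hESC, hPFE also gained the region 25.0 kb below SOX7, at 10.2, and lost the one 72.5 kb below, chr8:10651087-10651444 inside RP1L1. The heights of the lost region were 12.8 and 33.8 in hESC, a single weak peak of 5.16 in hDE replicate 2, and no peak in hAFE or hPFE. Over the SOXF loci 4 regions were gained and 1 lost in hPFE against hESC, where 13.4% and 6.62% of all regions were. Without hAFE replicate 1, 4 regions were gained in hPFE against hAFE (10.2% of all regions), and without hESC replicate 1, 4 were lost in hPFE against hESC (12.2% of all regions).

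None of the 16 regions of the SOX7 locus had an unadjusted exact p under 0.05 over the 4 stages. On the scaled heights 5 of 16 did, where 19.9% of all regions did, and none passed after adjustment. The lowest was that of the region 4.10 kb above the gene, in SOX7-AS1, with scaled heights in both hDE libraries below those in both hESC libraries (exact permutation test on scaled heights, p = 0.00952, adjusted p = 0.191). Its unscaled heights, 11.4 and 34.8 in hESC, 6.99 and 17.3 in hDE, then 14.0 and 6.75 in hAFE and no peak in hPFE, overlapped between the first stages (exact permutation p = 0.257, adjusted p = 0.402).

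**Figure D4:**
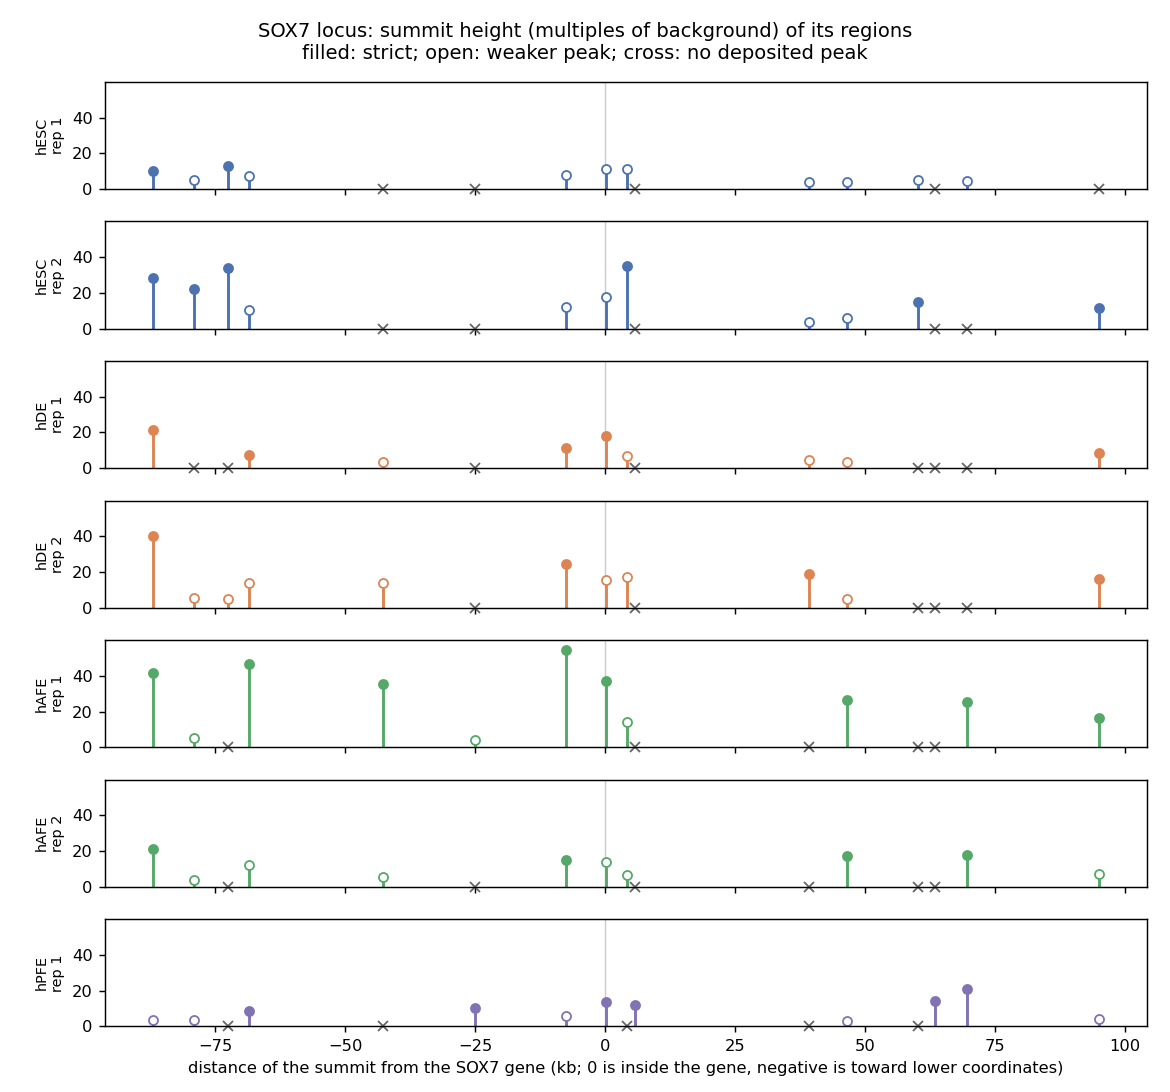
Summit height in multiples of the genome-wide background (linear axis from 0) of the 16 regions of the SOX7 locus by distance of the summit from the gene in kb, with 1 panel per library from hESC at the top to hPFE at the bottom; symbols are as in the plot of the SOX17 regions. The stem 69.5 kb above the gene is present at both hAFE libraries and hPFE and absent from the hDE panels, and the stems at 5.74 and 63.4 kb appear in hPFE alone.

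The SOX18 locus was open around its neighbours at every stage. Summed height was 241 and 418 in hESC, 308 and 112 in hDE, then 669 and 349 in hAFE and 237 in hPFE. Stages overlapped between hDE and hESC, and the value in hDE replicate 2 rested on 3 strict regions, against 17 in hDE replicate 1 (share of stage 0.525, exact permutation p = 0.571, adjusted p = 0.663). The cut for strict lay at a −log10 p of 97.1 in hDE replicate 2 and 15.4 in hDE replicate 1. The region 73.6 kb below the gene, for example, had heights of 20.5 in replicate 1 and 21.9 in replicate 2 and was strict in replicate 1 only. The sum in hDE replicate 2, and the differences that use it, leave out such regions. The hAFE libraries exceeded the hDE libraries by 1.38 on the log2 scale, as at 58.1% of all genes, and on the scaled sums the stages overlapped. Between hPFE and hAFE the difference was −1.02 before scaling, with hPFE below both libraries, and 0.30 after it, with hPFE above both. Divided by the median over all genes, the sums were 1.95 and 1.97 in hESC, 2.20 and 0.592 in hDE, then 1.94 and 1.64 in hAFE and 2.19 in hPFE.

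SOX18 itself carried little of that signal. The only region at its gene, chr20:64049405-64049742 at the upper end, had peaks in 3 of 7 libraries, at 14.4 in hDE replicate 1, 13.1 in hAFE replicate 1 and 11.7 in hPFE, and it was absent from both hESC libraries and from the other replicate of hDE and of hAFE. Replicates thus disagreed at 2 stages (exact permutation p = 0.695, adjusted p = 0.728). It was strict in hDE replicate 1 and in hPFE, and it is the SOX18 region counted as gained in hPFE against hESC.

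Of the 20 regions of the SOX18 locus, 19 had their nearest protein-coding gene end at another gene, against 4 of 18 at SOX17 and 12 of 16 at SOX7. Within 1 kb of an end of another gene lay 9 of the 20, against 1 of 18 at SOX17 and 1 of 16 at SOX7. The windows differ in gene density, with 10 neighbouring protein-coding genes at SOX18, 2 at SOX17 and 3 at SOX7. No share over all loci was computed for these counts. The 3 regions of the SOX18 locus that were strict in all 7 libraries lay at UCKL1, PRPF6 and TCEA2, which encode a uridine kinase family protein, a splicing factor and a transcription elongation factor. The TCEA2 region, chr20:64062658-64063947, was the tallest of them in hAFE and hPFE, with heights of 27.0 and 45.4 in hESC, 31.7 and 38.0 in hDE, then 122 and 58.7 in hAFE and 35.5 in hPFE. The PRPF6 region, chr20:63980670-63981594, had 31.7 and 43.3 in hESC, 24.7 and 39.9 in hDE, then 68.9 and 35.3 in hAFE and 18.2 in hPFE. The UCKL1 region, chr20:63955847-63956891, had 22.3 and 45.7 in hESC, 32.1 and 33.6 in hDE, then 89.6 and 44.1 in hAFE and 27.7 in hPFE. At all 3 the spread between the hAFE replicates exceeded the difference between hDE and hESC.

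Each of these 3 regions covers a promoter annotated by RefSeq (GRCh38.p14), and the 250 bases before the annotated start are shown because they are the sequence under the regions that stayed strict in every library. They run 5′ to 3′ on the gene's strand, and capitals mark a GC box, searched as GGGCGG and, for the other strand, CCGCCC.
UCKL1 promoter, chr20:63956417-63956666, minus strand: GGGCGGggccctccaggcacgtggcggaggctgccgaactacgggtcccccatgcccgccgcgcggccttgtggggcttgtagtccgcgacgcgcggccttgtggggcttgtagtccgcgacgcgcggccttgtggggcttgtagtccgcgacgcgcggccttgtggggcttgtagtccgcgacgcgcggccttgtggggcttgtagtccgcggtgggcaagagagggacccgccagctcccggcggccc
PRPF6 promoter, chr20:63980882-63981131, plus strand: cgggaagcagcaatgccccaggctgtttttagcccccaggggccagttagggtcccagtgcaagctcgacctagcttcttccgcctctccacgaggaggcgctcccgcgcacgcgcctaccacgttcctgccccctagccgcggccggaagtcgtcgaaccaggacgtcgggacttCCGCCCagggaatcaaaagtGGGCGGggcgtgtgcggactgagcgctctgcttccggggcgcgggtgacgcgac
TCEA2 promoter, chr20:64062948-64063197, plus strand: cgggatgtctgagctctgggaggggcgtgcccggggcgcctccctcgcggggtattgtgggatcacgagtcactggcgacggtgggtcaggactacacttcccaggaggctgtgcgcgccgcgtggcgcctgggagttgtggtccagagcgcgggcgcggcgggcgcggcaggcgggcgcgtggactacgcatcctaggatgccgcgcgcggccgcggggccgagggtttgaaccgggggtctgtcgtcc
The UCKL1 promoter holds 1 GC box, the PRPF6 promoter 2 and the TCEA2 promoter 0, and 42.6% of 35116 RefSeq promoters of this length hold at least 1. Their GC content is 74%, 68% and 73.2%. The SOX core AACAAT, searched on both strands, occurs in none of the 3 and in 8.98% of all promoters.

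At the level of single regions, 12 of 20 at SOX18 were higher in both hAFE libraries than in both hDE libraries and 3 lower (background 28.9% and 17.1%), which became 6 and 3 on the scaled heights (23.7% and 26.7%). A pair of regions inside PRPF6 were taller in hDE: the one 16.8 kb below SOX18, chr20:64030295-64031141, had peaks in the hDE libraries only, at 12.5 and 14.4, and the one 47.8 kb below had 13.1 and 16.6 in hDE, against 3.79 in 1 hESC library. Each had an exact permutation p of 0.0381 and an adjusted p of 0.303. With the region 4.51 kb above the gene (p = 0.0190 by the same exact test), they were the 3 of 20 with an unadjusted p under 0.05, where 11.3% of all regions had one. On the scaled heights no region of the locus did, where 19.9% of all regions did.

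**Figure D5:**
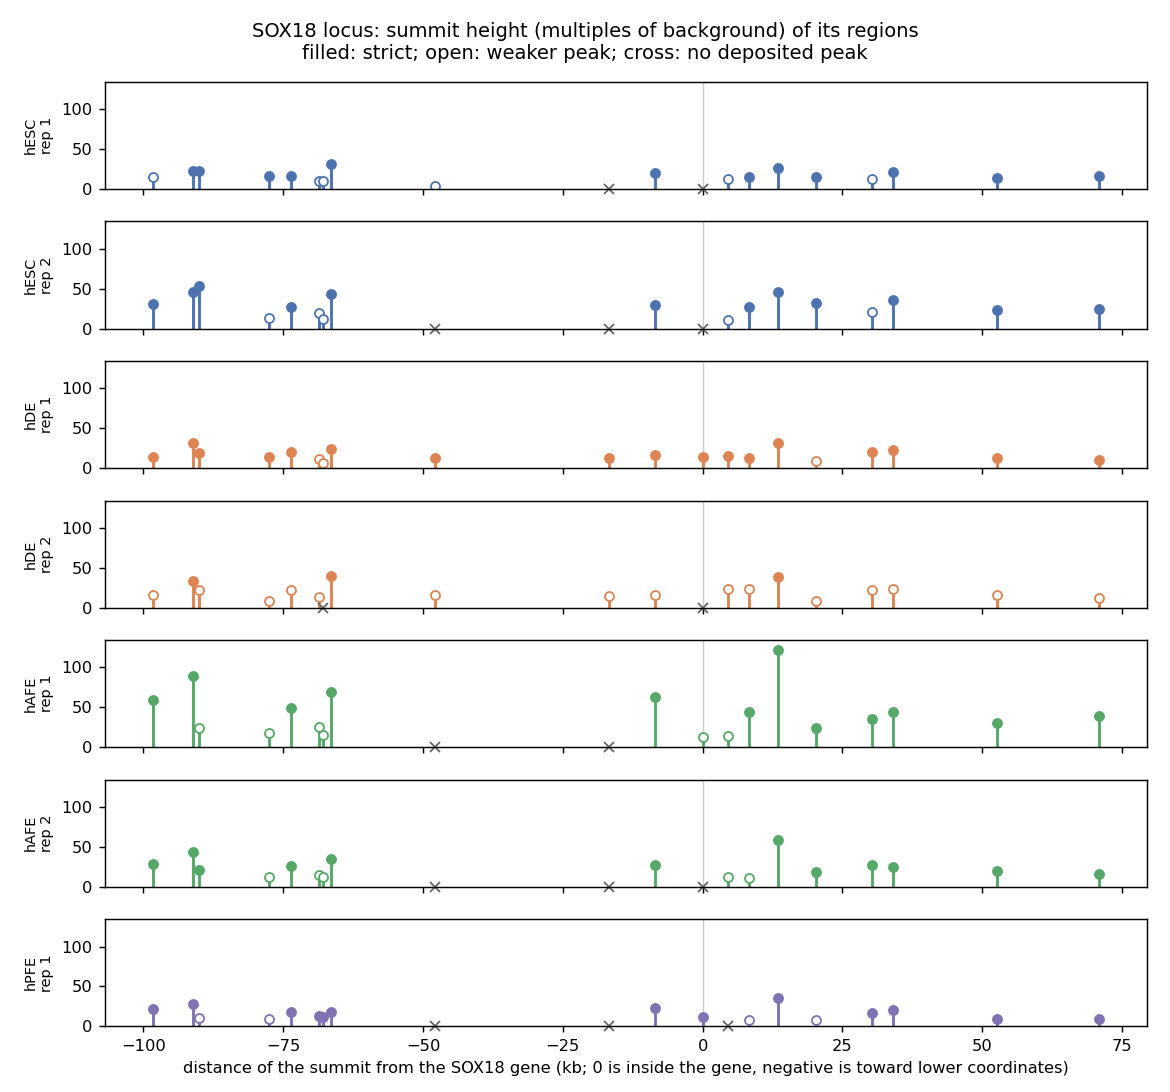
Summit height in multiples of the genome-wide background (linear axis from 0) of the 20 regions of the SOX18 locus by distance of the summit from the gene in kb, with 1 panel per library from hESC at the top to hPFE at the bottom; symbols are as in the plot of the SOX17 regions. The tallest stem in hAFE, at 122 and 58.7, is the TCEA2 region 13.4 kb above the gene, and at SOX18 itself a stem appears in 3 panels.

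Set side by side, the SOXF loci gained 0 and lost 0 of 54 regions in hDE against hESC, where 5.43% and 1.15% of all regions were gained and lost. Of the 8 SOX17 regions that were higher in hDE than in hESC, 7 had a deposited peak in at least 1 hESC library, and the eighth, 90.5 kb below the gene, was strict in 1 of the 2 hDE libraries. Regions strict in every library of a stage and without a peak elsewhere numbered 0 for hESC, hDE and hAFE (background 0.611%, 1.99% and 0.596%). A peak was present in all 7 libraries at 30 of 54 regions, where 30.6% of all regions had one: at 10 of 18 for SOX17, 5 of 16 for SOX7 and 15 of 20 for SOX18. Only the region 15.3 kb above SOX17 was lost in hAFE against hDE, where 3.2% of all regions were, and none was lost in hPFE against hAFE, where 4.18% were. These counts depended on single libraries. In hAFE against hDE 4 were lost without hDE replicate 2 and 2 without hDE replicate 1 (4.04% and 7.09% of all regions). In hPFE against hAFE 2 were lost without hAFE replicate 1 and 1 without hAFE replicate 2 (7.73% and 8.69%). In hDE against hESC 3 were gained without hDE replicate 2 (6.69%), and 2 were lost without hESC replicate 1 (3.04%). Between replicates, 1 region of 54 was strict in 1 hESC library and without a peak in the other, 1 in hDE and 0 in hAFE, where 2.45%, 0.973% and 1.19% of all regions were.

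Across the 7 libraries the locus sums were weakly alike between members, with Pearson's r of 0.22 between SOX7 and SOX17, 0.49 between SOX7 and SOX18 and −0.083 between SOX17 and SOX18. Within a library the sums of all genes share that library's depth and overall height, which differed between libraries. The genes with a pattern most like SOX17 were SVIP and CCDC179, whose windows hold the same regions and so gave identical sums (r = 0.99), and SEC24B (r = 0.98). SVIP summed to 74.4 and 63.8 in hESC, 146 and 241 in hDE, then 131 and 140 in hAFE and 29.3 in hPFE. Those most like SOX7 were ZBP1, MYOZ1 and LGALS9C, and those most like SOX18 were LOC124904607, SKOR2 and NRARP. Correlations above 0.9 were found for 227 of 19469 genes with SOX17, 544 with SOX7 and 1803 with SOX18.

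The list of 18 other genes of the endoderm network had the same direction as SOX17 between the first stages. At 11 of 18 both hDE libraries exceeded both hESC libraries and at 1 they were lower, where 11.1% and 12.1% of all genes had these orders, and the median scaled log2 difference was 1.29, against −0.051 over all genes. EOMES, a T-box activator of endoderm genes, summed to 124 and 166 in hESC, 299 and 574 in hDE, then 163 and 201 in hAFE and 42.7 in hPFE. CER1, a secreted Nodal and BMP antagonist, summed to 30.3 and 52.2 in hESC, 185 and 203 in hDE, then 88.2 and 63.1 in hAFE and 33.0 in hPFE. FOXA1, a pioneer factor of endoderm, was instead highest in hAFE, at 61.1 and 41.1 in hESC, 124 and 131 in hDE, then 318 and 244 in hAFE and 41.3 in hPFE. Between hAFE and hDE, 3 of 18 were lower and 4 higher, where 2.05% and 58.1% of all genes were. On the scaled sums 11 were lower and 1 higher, where 17% and 15.9% of all genes were, and the median scaled difference was −0.84. In the test over the 4 stages 3 of the 18 had an unadjusted exact p under 0.05 (EOMES 0.0190, FOXA1 0.0286, CER1 0.0476), where 4.2% of all genes did, and none passed after adjustment.

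Of the 23 vascular genes, which mark the other tissue of SOXF action, 1 was under 0.05 unadjusted and none after adjustment. In hDE against hESC 0 were higher and 2 lower, where 11.1% and 12.1% of all genes were. On the scaled sums 1 was higher and 6 lower, where 21.6% and 24.9% of all genes were, with a median difference of −0.24. The gene under 0.05 was PROX1, the regulator of lymphatic identity (exact permutation p = 0.0476, adjusted p = 0.632), and FLT4 and FLI1 followed at 0.143 and 0.162 by the same exact test. Of the 16 other SOX genes none was under 0.05 unadjusted. SOX21, a SOXB gene of neural progenitors, came nearest, with sums of 49.3 and 36.4 in hESC, 55.3 and 78.8 in hDE, then 138 and 98.9 in hAFE and 97.5 in hPFE (exact permutation p = 0.0571, adjusted p = 0.632). SOX2 and SOX1 followed at 0.152 and 0.171 by the same exact test.

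The stage labels were set against marker lists in the same values. Of 10 pluripotency genes, 0 were higher and 5 lower in hDE than in hESC, where 11.1% and 12.1% of all genes were. On the scaled sums 1 was higher and 5 lower, where 21.6% and 24.9% of all genes were, with a median difference of −0.63. DPPA4 summed to 127 and 170 in hESC, 64.9 and 179 in hDE, then 37.4 and 35.3 in hAFE and 0 in hPFE (exact permutation p = 0.0286, adjusted p = 0.632). PRDM14 and SOX2 followed at 0.0571 and 0.152 by the same exact test, and none of the 10 passed after adjustment. Of 10 mesenchyme genes, listed as markers of other cells the cultures could hold, none was under 0.05 unadjusted, and COL1A2, PDGFRA and PDGFRB came nearest at exact permutation p of 0.0952, 0.152 and 0.229. In hDE against hESC 2 of them were higher and 3 lower (11.1% and 12.1% of all genes), which became 2 and 2 on the scaled sums (21.6% and 24.9%), with a median scaled difference of −0.25. In hPFE against hAFE 1 was higher and 7 lower (1.39% and 92.4% of all genes), which became 4 and 1 on the scaled sums (38% and 33.1%), with a median scaled difference of 0.15. Whether such cells contribute to the SOXF values was not tested, and in bulk libraries fewer open cells and a weaker opening in every cell cannot be told apart.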

How the data were processed

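The 7 peak lists were analysed 1 per library. Per the submitters' processing notes the build was hg38 and DiffBind was used. The deposited file names record removal of duplicates and mitochondrial reads, the use of Tn5 cut sites, a limit of 0.01 on p and one of 300000 on the peaks, of which a last filter took out 626 to 1492. For the aligner and the peak caller, the name is not given in the sources used here. Each deposited peak carries a fold enrichment (a ratio over local background), a −log10 p and a −log10 q made by the authors. The authors' deposited score was not used.

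Fold and −log10 p together gave a whole summit pileup and local background for 100% of regions (within 0.001), and the most frequent background of a library measures its depth. No read number was used. Overlapping peaks were joined within a library and ranked by −log10 p, and strict regions of different libraries were joined where they shared at least 1 bp. A gained region was strict in every later-stage library and had no peak in any earlier-stage one, and a lost region was the reverse. Locus sums used protein-coding genes of the RefSeq table (GRCh38.p14), which gives no strand or exons, so promoter, exon and intron were not told apart. Of the SOXF genes none has an entry in its promoter table. TDGF1 was matched as CRIPTO.

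The stage test was an exact permutation test of log2 values over every regrouping into 3 pairs and 1 single (pseudocount 1 for sums), adjusted by Benjamini-Hochberg over 19709 genes or 129718 regions. A feature set apart at 1 stage alone can have a p as large as 0.143. The test was checked on simulated data. No peaks were shared in position and value between replicates. Regions named are those at a member gene, gained, lost or restricted to a stage, and the strongest per stage; the regions at 75.7, 43.1, 44.6 and 7.50 kb, at 46.5, 4.10 and 4.51 kb, the smaller one beside that at 14.2 kb, and those in PRPF6 and at UCKL1 were named after their values were seen. For each list the 3 genes of smallest p are named. The members and lists were chosen with earlier results of these data known, and the scaled values were added after the data were seen. Python 3.11.15, numpy 2.4.6, scipy 1.17.1 and pandas 2.3.3 were used.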

Additional observations from a re-analysis of the deposited data

How the results depend on the processing

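In all, 341 alternative values were computed: 269 were counted as kept, 67 as moved and 5 as reversed. A stage test was kept if it stayed on its side of the threshold, and a log2 difference if it stayed within the replicate spread. Counts of regions were kept if equal or of similar size. A change of sign was counted as reversed only where the libraries did not overlap in the main setting. The 5 thus leave out changes of sign at steps where they overlapped. No stage test of the 3 SOXF loci or of the 7 SOX17 regions recomputed passed 0.05 after adjustment under any alternative, with adjusted p at the SOX17 locus from 0.396 to 0.946. All these stage tests, 17 alternatives per locus and 11 per region, were therefore counted as kept. Of all genes and regions none passed in the main test either, so this count cannot show that the stage results were stable. The region inside the SOX17 gene was counted as kept throughout. Its unadjusted exact p was 0.0190 in the main test and 0.752 by rank score. The 7 regions were those of the SOX17 locus with the lowest unadjusted exact p in the main test, up to 0.0571. Other regions of the 3 loci were not followed. The unadjusted exact p of the SOX17 locus ran from 0.00952 to 0.314, the highest for the number of strict regions. With 1 library left out its stage share was 0.981 to 0.9998.

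For gained regions, hDE against hESC had 5 at a −log10 q of at least 5, 2 with 100000 strict regions and 2 with summits of at least 10 times background (0 to 3 with 1 library left out). For hAFE against hDE they were 4 at that q, 3 with 100000, 0 with 25000 and 0 within 50 kb (1 to 2). For hPFE against hAFE they were 4, 6, 1 and 1 under the same settings (2 to 4), and for hPFE against hESC 9, 12 and, with 25000, 1 (4 to 5). Lost regions numbered 1 in hDE against hESC with 100000 (0 to 2); 7, 5, 0 and, by summit height, 4 in hAFE against hDE (1 to 4); 6, 4 and 3 by q, 100000 and summit height in hPFE against hAFE (1 to 2); and 3, 0, 3 and, within 50 kb, 0 in hPFE against hESC with 100000, 25000 and summit height (1 to 4). The loci then held other numbers of regions: 109 by q, 93 with 100000, 29 with 25000, 72 by summit height and 31 within 50 kb. Shares of all regions moved too. Under the settings named, those gained were 3.3% to 6.47% in hDE against hESC, 0.927% to 4.14% in hAFE against hDE, 5.34% to 11.9% in hPFE against hAFE and 9.73% to 16.2% in hPFE against hESC. Those lost were 2.51%, then 1.87% to 4.53%, 4.84% to 7.84% and 3.6% to 8.89%.

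The SOX17 log2 difference of hDE and hESC was 1.15 with all peaks summed, 2.35 with nearest-gene regions, 0.69 as a number of regions, 1.32 with 100000, 2.81 with 25000, 0.71 by rank scores and 2.20 within 50 kb (1.50 to 1.82). That of hAFE and hDE was −0.36 with all peaks, −1.30 scaled, −0.27 by number, −0.39 with 100000, −0.94 with 25000 and −0.29 by rank (−0.73 to −0.40). That of hPFE and hAFE was −1.72 with all peaks, −1.13 scaled, −3.16 with nearest-gene regions, −0.99 by number, −2.14 with a pseudocount of 10, −1.83 with 100000, −2.88 with 25000 and −0.95 by rank (−2.45 to −2.40). The sign held in each, but the hAFE and hDE libraries overlapped with all peaks, by number and by rank, and the hDE and hESC libraries by number.

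SOX18 reversed. Between hAFE and hDE its difference was −1.97 with nearest-gene regions, and between hPFE and hAFE it was 0.30 scaled, 3.66 with nearest-gene regions, 0.11 by number and 0.079 by rank. Only 1 region remains under the nearest-gene setting, and the cause of the other reversals was not tested. Between hDE and hESC, where the libraries overlap, SOX18 had 1.97 with nearest-gene regions, against −0.77 with all strict regions of the locus, and SOX7 had −0.82 to 1.80 with 1 library left out.

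Replicate numbers did not pair the libraries (correlations of −0.087, −0.11 and 0.058 over regions and −0.31, −0.41 and 0.32 over genes). With the number as a block the SOX17 locus had a stage share of 0.994 (exact p = 0.0417, the smallest that test allows). Depth limits absence: a region without a peak may lie under the list's limit, whose weakest −log10 p ran from 2.23 to 8.86.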
